A study of Mus musculus with 10 samples.

Results

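The replication-dependent histone genes are the protein-coding genes with the symbols H1f1 to H1f5, or H2ac, H2bc, H3c or H4c followed by a number. By this rule, which uses gene names and no measured value, 67 of the 56750 features of the count table are members: 5 linker histone (H1), 18 H2A, 19 H2B, 12 H3 and 13 H4 genes. On GRCm39, 53 lie on chromosome 13, 10 on chromosome 3, 3 on chromosome 11 and 1, H4c16, on chromosome 6. They were measured by bulk RNA-seq of mouse sarcomas. The dFLEx group held 3 tumors, 170019, 170024 and 170025, of genotype dFLEx CDS +/-, in which a CIC::DUX4 fusion with an HA tag, placed at Rosa26 behind a CAG promoter, is put in frame by Cre together with FLP. Plasmids for both recombinases were electroporated into hind limb muscle, so these tumors grew within muscle. The KP group held 2 tumors, 3800 and 3802, labelled KRASloxP-STOP-loxP-G12D; p53fl/fl, and how they were induced is not given in the sources used here. The labels give no strain, age or treatment for either group. The RNA of a tumor was halved before library making to give 2 duplicates. The count table has no column for the second of 3802, so 6 dFLEx and 3 KP libraries were analysed. The labels do not say that the tumors of a group came from separate mice, and p-values measure the spread between these tumors.

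Histone mRNAs of this kind are made in S phase, when new DNA has to be packaged into nucleosomes of H2A, H2B, H3 and H4 that H1 then helps to compact. They are known for ending not in a poly(A) tail but in a short stem-loop, which the stem-loop binding protein holds and beyond which the transcript is cut. Some of these genes also give longer, polyadenylated transcripts, and replacement variants such as H2az1 or H3f3b, made from ordinary polyadenylated mRNAs, serve nucleosomes outside replication.

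The stem-loop is shown because it is what the members share in sequence and what sets their mRNAs apart. Within 150 bases after the stop codon, 65 of the 67 members held a run of 16 bases matching the histone stem-loop, all but H2bc21 and H2ac22, against 6 of 21589 other protein-coding genes (0.0278%), among them H2ax and H1f6. The most common form occurred in 42 members, and the others differed within the paired stem arms or the loop of 4 bases, which is in capitals and printed as DNA, 5′ to 3′, from GRCm39:
H1f2, chr13:23923495-23923510, plus strand: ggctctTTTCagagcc
H3c3, chr13:23929030-23929045, minus strand: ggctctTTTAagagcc
H4c8, chr13:23715628-23715643, plus strand: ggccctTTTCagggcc
H4c9, chr13:22225136-22225151, minus strand: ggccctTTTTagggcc
H2bc4, H2ac7, H2ac23 and H2ac25 carried the same 16 bases as H1f2. Members with many and with few counts thus shared the same loop.

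The gene models differed in what follows the loop. In 19 members a GENCODE transcript ran more than 20 bases past the loop, or had no loop, and held AATAAA or ATTAAA, the signal for poly(A) addition, in its last 40 bases. Models without this signal did not all end at the loop: that of H1f3 held 4884 exonic bases past it and that of H2ac6 2010. The ends of the models of the 4 members with the most counts are shown because those members carried most of the signal below, with the tail signal in capitals:
H1f2, chr13:23924319-23924348, plus strand: gcttctAATAAAaagcgtttagttttcatt
H2bc4, chr13:23876439-23876468, plus strand: atatatAATAAAtgtcatgtaaagcaaaaa
H4c9, chr13:22224806-22224835, minus strand: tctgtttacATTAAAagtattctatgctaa
H4c8, chr13:23715652-23715681, plus strand: tttcttATTAAAagagcgaacatgtgtttt
The counted model of H1f2 held 840 exonic bases past its loop, that of H2bc4 733, that of H4c9 330 and that of H4c8 46. The end shown for H2bc4 lies in a second exon. It belongs to a transcript that stops before the end of the counted model, which is at position 23876891. In part of the H2bc4 models the first exon stops short of the loop. A match to these letters is a description of the model and does not show where transcripts ended.

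Counts of these genes were few in every library. Library totals ran from 20503474 to 46302223 counts, and the 67 members together held between 0.0145% and 0.0319% of them. Over all libraries 6 members had no count, 6 had 1 to 9, 17 had 10 to 99, 34 had from 100 to 965 and 4 had from 2116 to 24388. A library with no count of a gene still allows up to 3 counts if counts are independent, which is 0.0648 to 0.146 CPM (counts scaled to the library total). Each mate was counted as a read, so the limit can be higher. Duplicate libraries of a tumor differed in the summed member share by between 1.31% and 3.83%. Per library total the members stood at 145 and 147 CPM in the duplicates of 3800, at 148 and 153 in those of 170025 and at 319 and 313 in those of 170024. Tumors 3800 and 170025, of different groups, thus differed on this scale by about as much as duplicates do, and 170024 lay well apart.

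Near-identical copies and overlapping annotation limited which members could be read. Reads with several alignments or over several genes were left out of the deposited counts. H2ac18, H2ac19, H3c13, H3c14 and H2bc18, which are 5 of the 6 members with no count, share 100% of their exonic bases with another annotated gene, so that their zeros say nothing about expression. H2ac1, the other one, shares 33.1%. Windows of 100 bases occurred only once in GRCm39 for all of the sequence of 8 members, for under 50% of it in 24 and for none of it in 5. H2ac23 was in the last group, sharing 92.7% of its windows with H2ac24, and its level and that of H2ac24 are uncertain. Before trimming, reads were paired and longer than these windows, so the shares can understate what could be told apart. H2ac23 still held 605 counts.

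**Figure D1:**
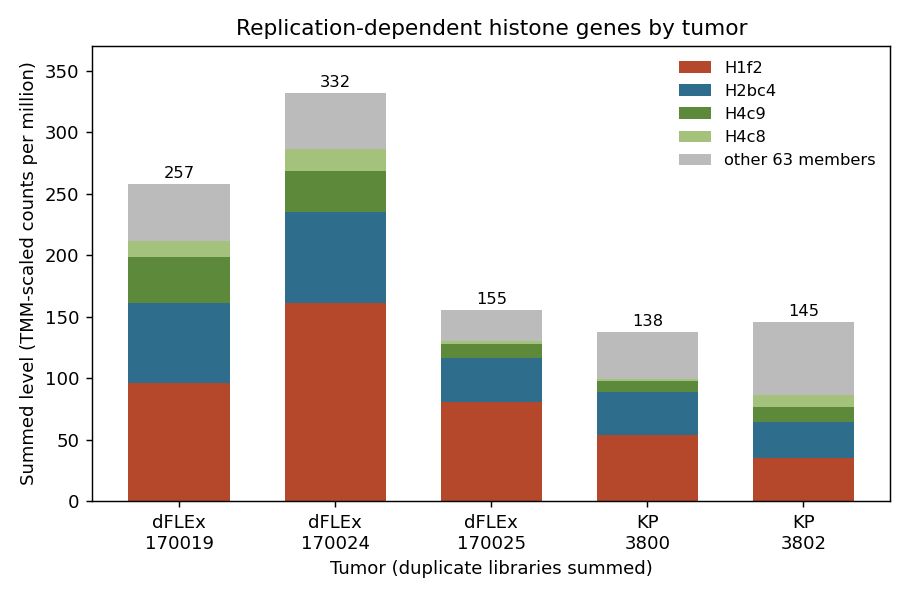
Summed level of the replication-dependent histone genes in each tumor (vertical axis, TMM-scaled CPM, duplicates summed), with H1f2, H2bc4, H4c9 and H4c8 in color and the other 63 members in grey. The bars reach 257, 332 and 155 in the dFLEx tumors and 138 and 145 in the KP tumors, and the grey part is largest in 3802.

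A handful of genes made up most of the histone signal. H1f2 (ENSMUSG00000036181), a linker histone, held 43.8% of all member counts, H2bc4 (ENSMUSG00000018102), an H2B, 23.4%, and the H4 genes H4c9 (ENSMUSG00000060639) and H4c8 (ENSMUSG00000060981) 9.51% and 3.80%. Together they held 80.6%, which was 82.1%, 86.2% and 83.7% in dFLEx tumors 170019, 170024 and 170025, 72.2% in 3800 and 59.5% in 3802. H1f2 alone held 37.3%, 48.4% and 51.6% in those dFLEx tumors, 39.3% in 3800 and 24.2% in 3802. Shares over all counts weigh the 6 dFLEx libraries more than the 3 KP libraries. The 19 members with a tail signal in a model held 87.1% of the member counts and the other 48 held 12.9%. Per kilobase of exonic length the typical member did not differ this way: the median level was 0.673 CPM per kb in the 19 and 0.619 in the 48, but the highest was 54.6 in the former and 5.20 in the latter. In the plot of levels by class, H1f2, H2bc4, H4c9 and H4c8 stand above every other member of their class. Their mean levels per kilobase were 54.6, 41.3, 28.5 and 19.0 CPM per kb.

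**Figure D2:**
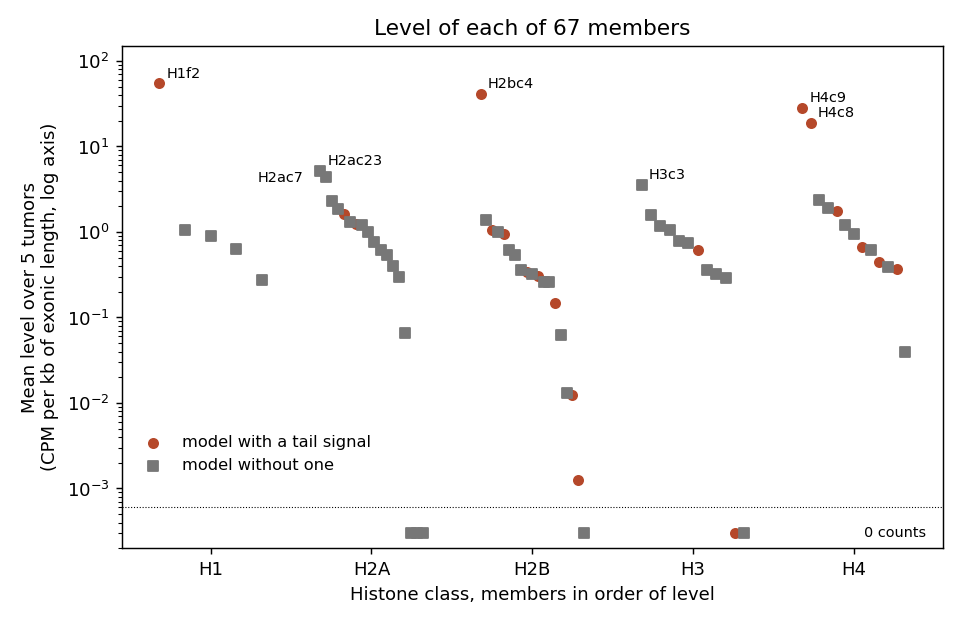
Mean level over the 5 tumors of each of the 67 members (vertical log axis, CPM per kb of exonic length), arranged by histone class, with circles for members whose model has a tail signal past the loop and squares for the rest. H1f2 at 54.6 and H2bc4 at 41.3 CPM per kb are the highest, and the 6 members with no count are drawn under the dotted line.

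H2A and H2B genes that face away from each other across a short shared promoter were unequal in level. Of 13 such neighbours, 11 had enough counts for a ratio, and per kilobase the H2A gene was higher in the mean over tumors in 7 and the H2B gene in 4, but in every tumor in only 3 and 2 of them. H2bc4 reached 41.3 CPM per kb beside 0.618 for H2ac6. H2ac25 reached 1.64 beside 0.0621 for H2bc26, which had 9 counts in all. Both orders held in all 5 tumors. H2ac7 had a mean of 4.39 beside 0.362 for H2bc7, but that mean rests on the single library of 3802, at 19.7 CPM per kb, and in the 3 dFLEx tumors H2bc7 was the higher of the pair, on 2 to 26 counts a tumor. H2ac8 and H2bc8 were close, at 1.23 and 1.40 CPM per kb. Windows were unique for 72.1% and 92.3% of H2bc4 and H2ac6, 100% and 91.1% of H2ac25 and H2bc26, and 36.4% and 51.1% of H2ac7 and H2bc7, and 33.0% of the exonic bases of H2ac25 lie under another gene. The part of lost reads in these ratios was not tested.

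RefSeq promoters (GRCm38.p6, 250 bases before to 50 after the start) were at hand for 57 members, 1 of which has 2. CCAAT, on either strand, was in 86.2% of the 58 member promoters and in 37.4% of all 32851. It was in every H1, H2A, H2B and H3 promoter and in 3 of 11 H4 promoters. TATAAA on the coding strand was in 50% against 8.32%, and ATTTGCAT, the octamer, on either strand was in 22.4% against 1.74%, all of them H2A or H2B promoters. Facing H2A and H2B neighbours lie 175 to 305 bases apart, so their promoter windows can overlap. A motif sought on either strand can then count for both, and the 58 are not all separate stretches. The 100 bases before the start are shown for the leading member, H1f2, and for H2ac7 and H2ac23, H2A genes whose levels lay in opposite directions between the groups, with these motifs in capitals:
H1f2, chr13:23738707-23738806, plus strand: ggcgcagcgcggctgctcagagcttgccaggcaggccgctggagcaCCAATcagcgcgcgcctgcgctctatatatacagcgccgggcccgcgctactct
H2ac7, chr13:23574281-23574380, plus strand: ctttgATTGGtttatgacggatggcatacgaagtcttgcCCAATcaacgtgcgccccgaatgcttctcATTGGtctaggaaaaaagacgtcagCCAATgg
H2ac23, chr13:21810267-21810366, plus strand: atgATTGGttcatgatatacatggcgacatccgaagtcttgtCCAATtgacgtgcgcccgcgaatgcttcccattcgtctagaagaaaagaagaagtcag
ATTGG is CCAAT read on the other strand.

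The study compared dFLEx with KP sarcomas to describe the program of the fusion. Before the histones, the labels were checked. The construct's CIC::DUX4 sequence stood at 105, 202 and 423 CPM in the dFLEx tumors, at 0 in 3800 and at 0.244 (6 counts) in 3802. Etv4, a target gene of the fusion, was at 2724 to 4211 CPM in dFLEx and 117 and 180 in KP tumors. Trp53 was at 77.5, 85.1 and 104 CPM in dFLEx and 162 and 82.6 in KP tumors, a count over the whole gene that cannot show loss of part of it. As bulk samples, the tumors do not tell fewer cells of a type from less RNA per cell.

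The summed histone level was higher in each dFLEx tumor than in each KP tumor, by little in 1 of them. It was 257, 332 and 155 TMM-scaled CPM in 170019, 170024 and 170025, and 138 and 145 in 3800 and 3802, or 248 ± 88.5 (SD, n = 3) against 142 ± 5.49 (SD, n = 2). The difference was 0.74 on the log2 scale. A two-sided exact permutation test over the tumors gave p = 0.2, which is the smallest it can give for 3 against 2. 170025, the lowest dFLEx tumor, lay just above 3802, and with DESeq2 size factors, library totals or upper quartiles in place of TMM the groups overlapped, with differences of 0.66, 0.45 and 0.59. The sign of the difference changed without the 4 members with the most counts, a split chosen after their counts were seen. Counts were pooled over 6 dFLEx and 3 KP libraries, so the ranking leans towards members high in dFLEx. H4c8 had 133 counts in 3800, below H2bc21 with 399, and 238 in 3802, below H2ac7 with 278. Without the 4, the other 63 members summed to 46.1, 45.7 and 25.3 CPM in dFLEx and 38.2 and 59.0 in KP tumors. The log2 difference was -0.34 (exact permutation p = 0.6), and these groups overlapped. Because of how the 4 were chosen, the change of sign does not locate the difference in them.

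By class, H1 was 101, 167 and 83.4 CPM in the dFLEx tumors and 58.5 and 41.6 in the KP tumors, a log2 difference of 1.18. H3 had the lowest mean of the 5 classes in each group, though H2A was lower in 3800 and H3c13 and H3c14 could not be read. Its sum was 7.66, 7.46 and 3.24 against 7.94 and 11.3 CPM, a difference of -0.74. For H1 and H3 the exact permutation p was 0.2, the smallest possible, and 0.5 after Benjamini-Hochberg adjustment over the 5 classes. The H1 sum is mostly H1f2, and of the 5 H1 genes 2 had a positive and 3 a negative fold change (median -0.079), or 1 and 4 with library totals or upper quartiles. Of the 10 tested H3 genes 3 were positive and 7 negative. The H1 sum was higher and the H3 sum lower in dFLEx under every scaling tried, although upper quartiles made both overlap and size factors made H3 overlap. H2B was 70.1, 83.6 and 43.2 CPM against 47.9 and 32.9, and H4 was 58.8, 57.8 and 17.3 against 15.8 and 35.1, and the groups overlapped in both (differences of 0.67 and 0.73, exact permutation p = 0.4 each). Of the tested H2B genes 2 had a positive and 10 a negative fold change, and of the tested H4 genes 5 and 7. H2A was 20.3, 15.5 and 8.20 against 7.54 and 24.5 CPM, where the KP tumors were the lowest and the highest of the 5. Of its 14 tested genes 5 were positive and 9 negative, and its difference of 0.013 turned negative under each other scaling.

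**Figure D3:**
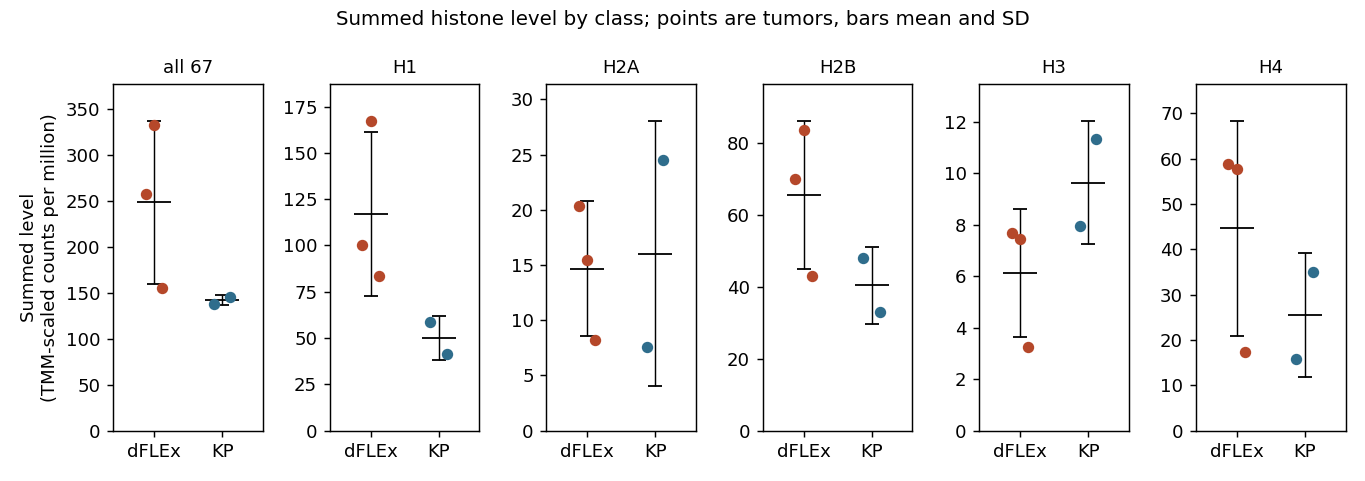
Summed level (vertical axis, TMM-scaled CPM) of all 67 members and of each histone class in dFLEx and KP tumors, with a point per tumor and the mean and SD in black. The groups do not overlap for all members, for H1 (83.4 to 167 against 41.6 to 58.5) and for H3 (3.24 to 7.66 against 7.94 to 11.3).

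No member was called in the test of single genes. With edgeR's quasi-likelihood test on tumor sums, 24743 genes were tested and 45 (0.182%) had an adjusted p under 0.05, 0.101% higher and 0.0808% lower in dFLEx. Of the 67 members 53 had enough counts to be tested, and 0 were called in either direction. An unadjusted p under 0.05 was found for 3 members against 10.6% of all tested genes, for H2ac23 and H2ac25, higher in dFLEx (5.65% of all), and for H2ac7, lower (4.93% of all). DESeq2 on the same sums called 1 of 61 members, H2ac7, and 3.16% of the 44382 genes fitted. Treating the 9 libraries as independent samples called 4 of 41, H1f2, H2ac7, H2ac23 and H2ac25, and 17.1% of the 19538 genes tested, and neither members' share is above that of all genes in its fit. Fold changes were positive in 17 members and negative in 36, with a median of -0.32 on the log2 scale, beside -0.18 for all tested genes, of which 56.3% were below 0. Every dFLEx tumor was above every KP tumor in 4 members, against 13.7% of all tested genes, and below in 10, against 11.7%, together 25.4% of all tested genes. The members with a mean of at least 1 CPM were split 9 to 8 when tested alone with the other genes of that level.

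**Figure D4:**
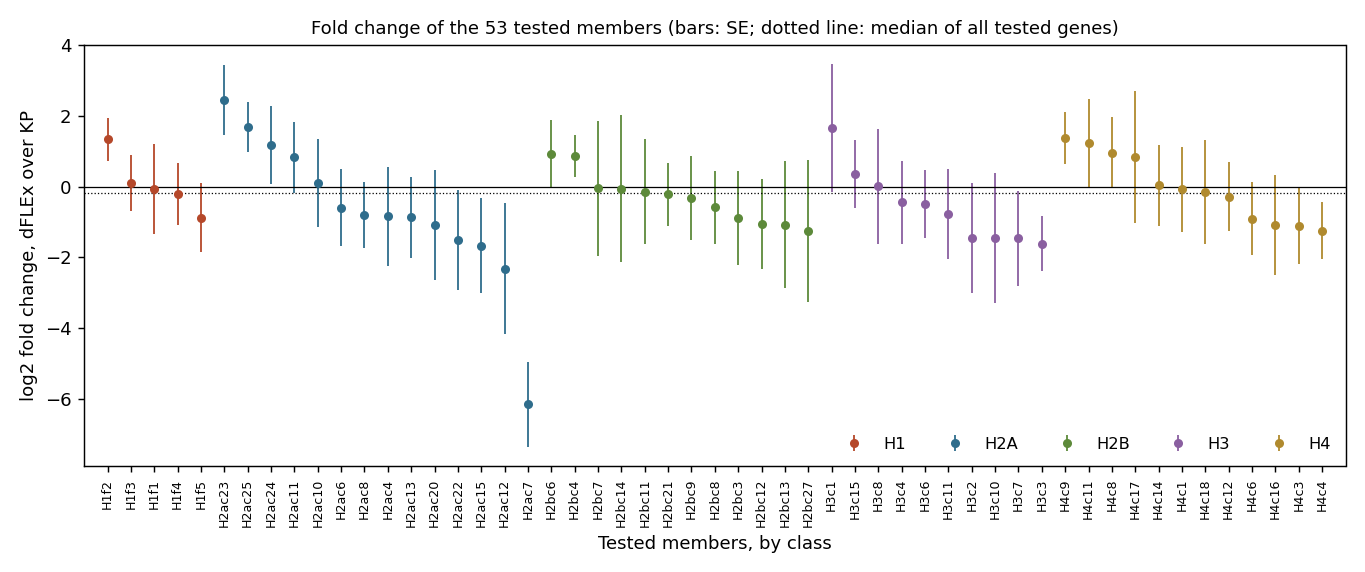
Log2 fold change of the 53 tested members (vertical axis, dFLEx over KP, with SE), arranged by class and size. H2ac23 at 2.45 and H2ac7 at -6.14 are the extremes, and the dotted line marks the median of all tested genes, -0.18.

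Among the linker histones, H1f2 was at 96.1, 161 and 80.2 CPM in the dFLEx tumors and at 54.1 and 35.1 in the KP tumors. All of the former were above the latter. Its log2 fold change was 1.33 (SE 0.61, adjusted p = 0.515 in edgeR's quasi-likelihood test), and it was 1.00 to 1.84 when 1 tumor was left out. H1f5, the next in level per kilobase, was at 0.80, 0.43 and 0.55 against 0.81 and 1.38 CPM, a fold change of -0.87 (SE 0.97).

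Of the H2A genes, H2ac23 (ENSMUSG00000094248) was at 6.82, 3.00 and 1.30 CPM in dFLEx and 0.43 and 0.93 in KP tumors, with no overlap. Its log2 fold change was 2.45 (SE 0.99, edgeR adjusted p = 0.426). H2ac25 (ENSMUSG00000078851) lies on chromosome 11 and, unlike H2ac23, can be told from its copies along all of its sequence, though 33.0% of its exonic bases lie under Gm56433 or Trim17, where reads were not counted. It was at 4.70, 6.36 and 3.45 CPM in dFLEx and 1.21 and 1.83 in KP tumors, again with no overlap and a fold change of 1.68 (SE 0.71, edgeR adjusted p = 0.461).

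H2ac7 (ENSMUSG00000071478, chr13:23758555-23759126) had the largest difference of the 53 tested members in either direction. Its counts in the 6 dFLEx libraries were 0 to 4, and in the KP libraries they were 29 and 46 in 3800 and 278 in 3802. That is 0.050, 0.14 and 0.063 CPM in the dFLEx tumors against 1.01 and 11.3 in the KP tumors, with no overlap between the groups and with 3802 far above 3800. Its log2 fold change was -6.14 (SE 1.20, edgeR adjusted p = 0.109). Without 3802 it was -3.53 (adjusted p = 0.206). With DESeq2 the adjusted p was 1.93e-06. H2ac7 can be told from its copies in 36.4% of its windows, sharing 55.2% of them with H2ac12, and 24.1% of its exonic bases lie under another gene. H2ac12 had 32 counts over all libraries.

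Of the H2B genes, H2bc4 was at 65.1, 74.1 and 35.8 CPM in dFLEx and 35.0 and 28.9 in KP tumors. The groups were separate by less than 1 CPM between 170025 and 3800, and the log2 fold change was 0.87 (SE 0.60, adjusted p = 0.774 in edgeR). H2bc8 was at 0.50, 0.64 and 1.02 against 1.75 and 0.41 CPM, the KP tumors lying on either side of the dFLEx tumors, and its fold change of -0.59 (SE 1.04) became 0.99 without 3800. Of the H3 genes, H3c3 was at 1.64, 1.53 and 0.53 CPM in dFLEx and 3.48 and 4.06 in KP tumors, without overlap (-1.61, SE 0.77, edgeR adjusted p = 0.550). H3c15, for which 38.4% of windows are unique, was at 1.72, 2.83 and 0.81 against 0.59 and 2.19 CPM, overlapping, with a fold change of 0.37 (SE 0.96).

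Among the H4 genes, H4c9 was at 37.4, 33.6 and 11.4 CPM in dFLEx and 8.49 and 12.8 in KP tumors. Tumor 170025 lay between the KP tumors, and the fold change was 1.37 (SE 0.72, adjusted p = 0.620). H4c8 was at 12.8, 17.6 and 2.696 against 1.79 and 9.67 CPM, with a fold change of 0.95 (SE 1.00, adjusted p = 0.882) that was 2.64 without 3802, 0.34 without 3800 and 0.43 without 170024. For both genes 170025 was the lowest of the dFLEx tumors and 3800 the lowest of all.

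The histone level was then set against genes it is known to run with. The 32 genes of the S-phase list, which are replication enzymes and helicase parts with some cyclins and regulators of S-phase entry, summed to 3093, 2119 and 2641 CPM in dFLEx and 2405 and 1273 in KP tumors. None had an adjusted p under 0.05, 2 had an unadjusted p under 0.05, the thymidine kinase Tk1 and the reductase subunit Rrm1, both higher in dFLEx, and 20 fold changes were positive and 12 negative (median 0.23). Pcna, the sliding clamp, was at 240, 166 and 134 against 143 and 86.3 CPM, and Mcm2, a helicase subunit, had a fold change of 0.25 (SE 0.64). As a percentage of the S-phase sum, the histone sum was 8.32, 15.7 and 5.88 in dFLEx and 5.72 and 11.4 in KP tumors. The groups overlapped, with a log2 difference of 0.18 (exact permutation p = 0.8) that was negative without 170024 (-0.21), without 3800 (-0.32) or without H1f2 (-0.15). Members without a tail signal came to 1.00%, 1.31% and 0.591% of the S-phase sum in dFLEx and to 1.07% and 3.69% in KP tumors, with 3802 standing above the rest. Of the 20 mitotic genes none was called or had an unadjusted p under 0.05, 5 were positive and 15 negative (median -0.46), and Mki67, the Ki-67 antigen, was at 23.8, 65.4 and 188 CPM in dFLEx and 121 and 19.9 in KP tumors.

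Summed counts of replacement variants were far above those of the replication-dependent genes. The variants are known for mRNAs with tails, but the list includes H2ax, which also held the stem-loop sequence after its stop codon. How far these libraries held transcripts without a tail was not tested, so the member counts may not measure stem-loop mRNAs on the same footing. The 11 of 13 listed variants found in the table summed to 6169, 3960 and 3155 CPM in dFLEx and 2744 and 2608 in KP tumors, a log2 difference of 0.67 (exact permutation p = 0.2, the smallest possible). All 11 fold changes were positive with TMM and with size factors, against 9 with upper quartiles and 8 with library totals, and their median was 0.71, beside -0.18 for all genes. None had an adjusted p under 0.05, and 3 had an unadjusted p under 0.05, higher in dFLEx. Macroh2a2, a variant of H2A with a large non-histone domain, was at 45.4, 30.1 and 54.3 CPM in dFLEx and 4.69 and 2.76 in KP tumors (log2 fold change 3.53, SE 0.70, edgeR adjusted p = 0.109). H2ax, the variant phosphorylated at DNA breaks, was at 249, 249 and 179 against 39.9 and 53.5 CPM (2.27, SE 0.58, edgeR adjusted p = 0.187). H1f0, the linker histone of differentiated cells, was at 598, 432 and 526 against 255 and 106 CPM (1.52, SE 0.61, edgeR adjusted p = 0.425). The groups did not overlap for any of these. H2az1, at 1640, 959 and 610 against 701 and 710 CPM, and H3f3b, at 866, 800 and 847 against 832 and 590, overlapped. The replication-dependent sum was 4.17%, 8.38% and 4.92% of the variants' sum in dFLEx and 5.02% and 5.58% in KP tumors, a log2 difference of 0.073 (exact permutation p = 1).

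**Figure D5:**
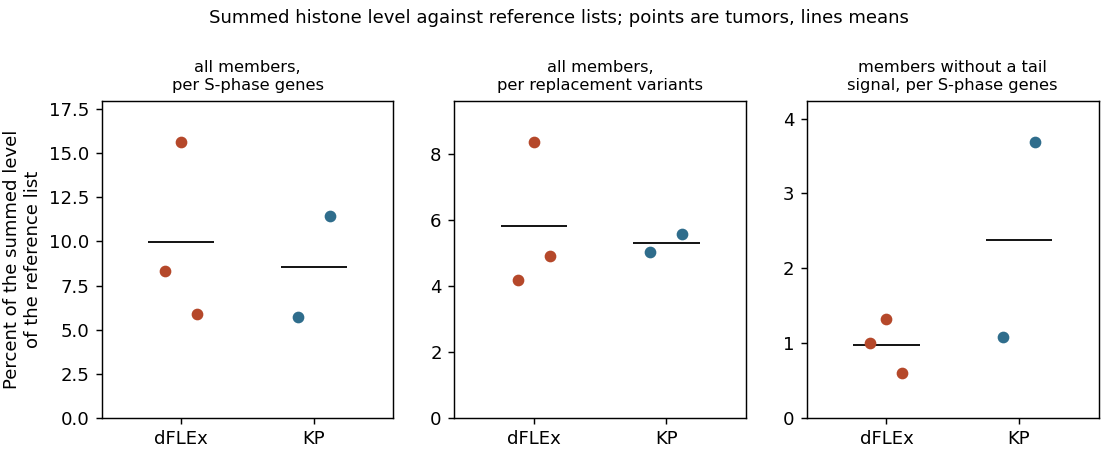
Summed level of all members (left, middle) or of the 48 members without a tail signal (right) as a percentage of the summed level of a reference list (vertical axes) in dFLEx and KP tumors, with a point per tumor and a line at the mean. For all members, against the S-phase genes the tumors run from 5.72 to 15.7 and against the replacement variants from 4.17 to 8.38, overlapping in each, and for the members without a tail signal against the S-phase genes 3802 is the highest at 3.69.

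The listed genes that make and mature histone mRNA, and the chaperone genes Nasp, Asf1a, Asf1b, Chaf1a and Chaf1b listed with them, showed no call either. Of these 22 genes together 9 fold changes were positive and 13 negative (median -0.080), and 0 had an unadjusted p under 0.05. Slbp, which binds the stem-loop, was at 77.8, 65.2 and 71.0 CPM in dFLEx and 68.7 and 43.3 in KP tumors (0.35, SE 0.55, edgeR adjusted p = 0.923). Npat, which drives histone transcription from the histone locus body, was at 10.996, 10.1 and 35.0 against 32.4 and 8.94 CPM (-0.14, SE 0.83, edgeR adjusted p = 0.983), each group holding a high and a low tumor.

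Several measures moved with the groups, with 1 tumor or with tumors of both groups, and their part in the histone levels was not tested. Tumor 3802 had counts in the most features, 36904 against 24280 to 31768 in the other libraries, and the highest level over 1545 olfactory and vomeronasal receptor genes, 0.107 CPM per kb against 0.00278 to 0.0240. Tumors 170025 and 3800, of different groups, had the fewest features, 24280 to 25572 per library, and the lowest receptor levels, 0.00278 and 0.00603. The same tumors had the lowest summed member level per library total, 145 to 153 CPM, and the lowest H4c8 and H4c9. Of the members 44 were above the receptor level in all 5 tumors, and subtracting that level left the difference in summed level at 0.77. Myocyte markers (9 genes) summed to 10184 to 37613 CPM in dFLEx and to 1459 and 4919 in KP tumors, endothelial markers (8) to 326 to 566 against 185 and 207, and macrophage markers (8) to 1061 to 1268 against 2660 and 5322. T cell markers (6) summed to 6.79 to 9.17 against 11.03 and 48.6 CPM and B cell markers (4) to 3.24 to 5.93 against 2.22 and 34.7, and no marker of these lists was at 0 in a tumor. The labels call the libraries rRNA-depleted, a preparation that does not select for tails. Of short RNAs without a tail that share no bases with another gene, Rn7sk was at 6.22 to 21.9 and Scarna2 at 0.346 to 9.85 CPM per library, while Rny1, Rny3 and Rnu12 were at 0 to 0.274, 0 to 0.0881 and 0 to 0.195.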

How the data were processed

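Tumor RNA was sequenced as paired-end, rRNA-depleted libraries. The authors trimmed reads with Trimmomatic 0.39, aligned them with STAR 2.7.10a to GRCm39 (mm39) extended by the construct, and deposited raw counts per gene made with featureCounts (Subread 2.0.3). Per the file headers, strand was ignored, chimeric pairs and reads with several alignments or over several genes were left out, and each mate counted as a read, so counting error exceeds what totals imply and count limits cover counting error only. The study compared the groups with DESeq2 and does not state how duplicates entered.

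GENCODE M39 gave a symbol for 98.7% of 56750 features, by Ensembl identifier, and coordinates are the table's. Counts of a tumor's duplicates were summed, filtered with filterByExpr, scaled by TMM and compared with edgeR 4.0.16 (glmQLFit, glmQLFTest; R 4.3.3), with p-values adjusted over every gene tested (Benjamini-Hochberg, threshold 0.05); the standard error (SE) is the absolute log2 fold change over the square root of F. Levels are TMM-scaled CPM of summed counts. Sums were compared on the log2 scale with two-sided exact permutation tests over tumors (SciPy 1.17.1), which allow 10 splits and no p below 0.2. The model was also run on simulated counts whose planted changes were larger than that of any tested member but H2ac7. That run does not show how well smaller changes would be found in these tumors. Alternatives were DESeq2 1.42.0, libraries as samples, the replicate block, 3 other scalings, 2 filters, counts divided by 2, the first library alone, tumors left out and members with at least 50% unique windows; sums without leading members and with receptor background subtracted were added after seeing the data.

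Values are given for the top 2 members of each class by mean level per kilobase, any member called, up to 3 largest and 3 smallest fold changes at an unadjusted p under 0.05, and 9 genes of the lists; others were named after their values were seen. Members and lists were chosen with earlier results of these data known. Rn7s1, Rn7s2, Rmrp, Rpph1, Terc and Rnu11 overlap other genes in 49% to 100% of their exonic bases and were not read, and mt-Rnr1 and mt-Rnr2 summed to 1069 to 1751 CPM.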

Additional observations from a re-analysis of the deposited data

How the results depend on the processing

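Counts of calls depended on the model and on single tumors. Over all genes, 45 were called; 1404 were called by DESeq2 on tumor sums, 3344 with libraries as samples, 80 at a mean of at least 1 CPM, 880 without a filter, and 0 to 414 with a tumor left out (0 without 170019 or 170024, 9 without 170025, 8 without 3800 and 414 without 3802). Among the members 0 were called; DESeq2 and the fit without a filter each called 1, H2ac7, and libraries as samples called 4. With the duplicate number as a replicate block, 2476 genes and 1 member, H2ac7, were called; differences between duplicates correlated across tumors by -0.041 to 0.038 over 18595 genes, so the numbers do not pair the libraries. In the lists, where 0 were called, DESeq2 called 2 replacement variants, the fit without a filter 1, libraries as samples 3 and the replicate block 3; for the processing list libraries as samples called 3 and the block 2, and for the S-phase list 2 and 1. No member was called with another scaling, counts divided by 2, the first library alone or a tumor left out, and the cause of these differences was not tested.

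The median of the members (-0.32) was -0.60 with library totals, -0.56 with upper quartiles and 0.093 at a mean of at least 1 CPM, where 17 members remain in the test, and ran from -0.50 to -0.093 with a tumor left out; library totals moved the median of all genes from -0.18 to -0.47. The summed level (0.74, and 0.50 to 1.04 with a tumor left out) became -0.34 without the 4 members with the most counts. The choice of these 4 leans towards members high in dFLEx. Relative to S-phase genes the sum (0.18) ran from -0.32 to 0.68 with a tumor left out and was -0.15 without H1f2 and -0.90 without the 4; relative to replacement variants (0.073) it ran from -0.22 to 0.28 and was -0.26 and -1.01. Single genes that changed sign follow, with their range when a tumor was left out. H3c15 was -0.015 with upper quartiles and -0.16 (without 170024) to 1.61, and -0.14 without 3800. H3f3b was -0.047 with library totals. H2bc8 ran from -1.25 to 0.99 (without 3800). Mcm2 ran from -0.27 (without 3802) to 1.29, with -0.073 without 170025. Mki67 ran from -0.65 (without 170025) to 2.39, with -0.38 without 3802. Npat ran from -0.96 to 1.24 (without 3800), with 0.10 without 170019 and 0.16 without 170024. Without changing sign, others moved by over 1.5 times: H2ac23 (2.45) to 1.599 without 170019, H1f0 (1.52) to 2.45 without 3800, H1f5 (-0.87) to -0.42 without 3802, H2az1 (0.60) to 0.11 without 170019, H4c8 (0.95) to 0.34 without 3800, 0.43 without 170024 and 2.64 without 3802, and Pcna (0.65) to 1.22 without 3800 and 0.36 without 3802 or 170019. Slbp (0.35) and H3f3b (0.24) were 0.88 and 0.67 without 3800 and were 0.072 and 0.027 without 3802. Depth limits the 63 lesser members, most of which had under 1 CPM on average, and 3802 rests on 1 library.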
